A study of Mus musculus with 19 samples.

Results

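The 78 genes described here encode subunits of the 5 oxidative phosphorylation complexes, together with 5 assembly factors of complex I that share its naming. They were chosen by symbol alone: all genes named Nduf, Sdha to Sdhd, Uqcr, Cox4 to Cox8 or Atp5, with no measured value in the rule. They are 78 of 9834 genes with a single symbol on the array, read by 107 of its 20205 probes. Complex I holds 36 of them, complex II 4, complex III 7, complex IV 16 and complex V 15. All are nuclear genes. Shares of all features, given below for comparison, are over 16148 features: the 9834 genes and each probe without a single symbol, taken alone.

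RNA came from FDCPmix, a mouse haematopoietic progenitor line, and was set on 2-colour arrays against a reference RNA. In 1 group of 4 arrays the own RNA was from treated cells, with no agent or time in these arrays' labels, and the reference was from non-treated cells. In the time course the own RNA was from cells at 3 h, 7 h and 12 h (4 arrays each) and 23 h (3 arrays) from the addition of tamoxifen, which binds oestrogen receptors, and the reference was from treated cells at 0 h. The line, its receptor status and its other alleles are not further described in the labels, which also carry the words ES cell line without explanation. Own RNA was in Cy5 for replicates 1 and 2 and in Cy3 for replicates 3 and 4, with replicate 2 at 23 h not analysed here. Nothing says that the replicates were separate cultures, so p-values measure the spread between arrays, which may be technical.

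The deposited value is a log ratio for each spot. It is read here as log2 of the own RNA over the reference, so that a value above 0 means more of the transcript in the own RNA; the base, the numerator and the handling of the dye swaps are assumed, since the sources used here do not give them. Ratios carry no level, so neither the abundance of these transcripts nor the cell type of the line could be checked against marker levels, and fewer cells of a type cannot be told apart from less RNA per cell. The treated arrays were the noisier ones: the SD over all probes was 0.619 to 0.642 on them and 0.235 to 0.36 on the others. 2 arrays stood apart. At 7 h, replicate 4 carried a repeated extreme value of the sign opposite to that of its dye group, and at 23 h, replicate 3 had a deposited median of 0.233 where the others lay between -0.012 and 0.024.

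As background, complexes I and II feed electrons from NADH and succinate to ubiquinone, complex III passes them to cytochrome c, and complex IV to oxygen. Complexes I, III and IV pump protons as they do so, and complex V, the ATP synthase, uses the returning protons to make ATP. The subunits are encoded in part by mitochondrial DNA, which this gene set does not include, and nuclear and mitochondrial genes must supply them in matched amounts. Blood stem cells are known to rest largely on glycolysis and to use more oxidative metabolism as they differentiate.

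In treated cells, 3 of the 76 genes that could be tested passed the test, and 2 of them belong to the membrane part of the ATP synthase. Atp5k and Atp5md rose, by 0.39 (SE 0.07, n = 4, limma adjusted p = 0.0119) and 0.30 (SE 0.08, n = 4, adjusted p = 0.0436). Cox6b2, the testis form of a complex IV subunit, fell by 0.55 (SE 0.12, n = 4, adjusted p = 0.0221). Each of the 3 genes was read by 1 probe. At 3, 7, 12 and 23 h no oxidative phosphorylation gene passed. Of all features tested in treated cells, 4.76% passed, so the 3 of 76 do not stand above the share of the array as a whole. None of the 3 calls held under every setting: all ended with array weights, with the treated arrays alone in the fit and with quantile normalization (adjusted p = 0.439 to 0.793). Leaving out 1 treated array at a time gave 2 to 5 called genes, with Cox6b2 lost without replicate 1, Atp5md lost without replicate 1 or 4, and 5 genes called without replicate 2 or 3. The share of all features called in these fits is not given here. At an unadjusted p below 0.05, 12 of the 76 genes passed, 10 of them higher and 2 lower, against 22% of all features.

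Most of the set nevertheless stood a little above 0 in treated cells. The fitted mean was above 0 for 60 of 76 genes, 78.9%, against 52.1% of all features, and the median was 0.10 against 0.009. It was not the same on every array: 75.3%, 70.1%, 33.8% and 64% of the genes with a value were above 0 on treated replicates 1 to 4, so replicate 3 went the other way. By complex, 29 of 36 genes of complex I were above 0 (median 0.10), 3 of 4 of complex II (0.059), 5 of 7 of complex III (0.048), 11 of 14 tested of complex IV (0.12) and 12 of 15 of complex V (0.10). On all 4 treated arrays 5 of 75 genes were above 0 (6.67%; 6.48% of all features) and 1 was below (1.33%; 7.59%). The 2 genes that could not be tested in treated cells were Cox7b2 and Cox8c, both testis forms of complex IV subunits, with values on 2 and 1 of the arrays.

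**Figure D1:**
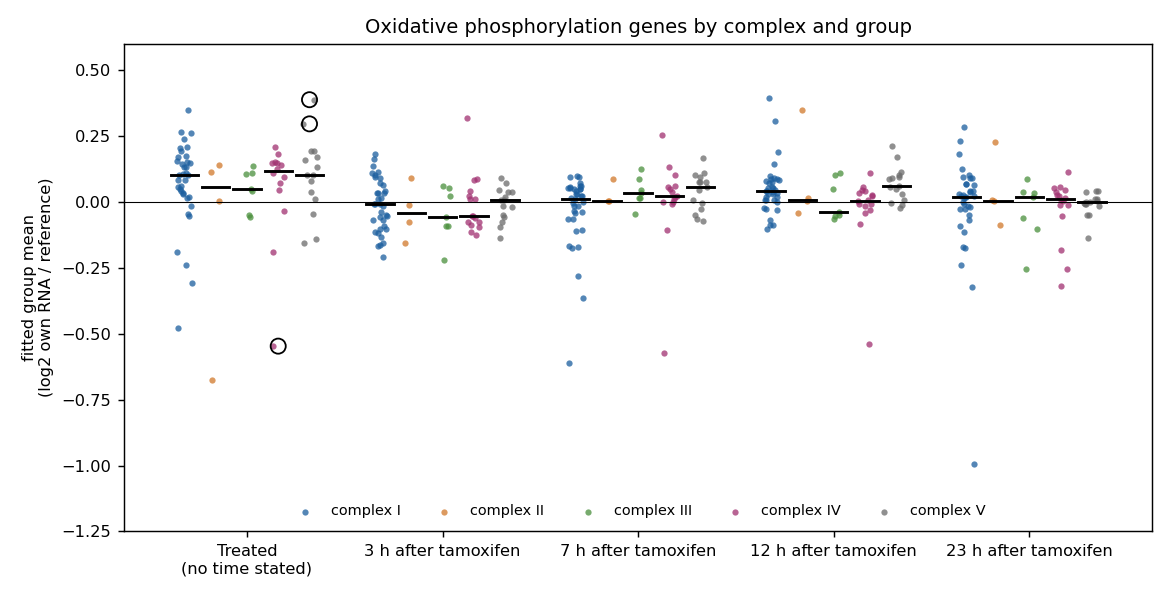
Fitted group mean of each gene (log2 of own RNA over reference, vertical axis) in treated cells and at 3, 7, 12 and 23 h, 1 point per gene, coloured by complex; black bars are the medians of each complex and circles mark the 3 genes that passed the adjusted threshold. In treated cells the medians of the complexes lie between 0.048 and 0.12, and at the 4 times they lie between -0.057 and 0.062.

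The ATP synthase has a soluble catalytic part, F1, a ring of c subunits that turns in the membrane, a peripheral stalk that holds F1 still, and small membrane subunits that join the enzymes into dimers. Atp5k encodes subunit e and Atp5md the small subunit known as DAPIT, both of this dimer-forming group. Their promoters, the 250 bases before the start in the RefSeq table of build GRCm38.p6, and that of Cox6b2 are printed because these are the genes that passed. Each lies on the minus strand, at chr5:108434400-108434649 for Atp5k, chr19:47090648-47090897 for Atp5md and chr7:4753095-4753344 for Cox6b2. Capitals mark an NRF1 motif in Atp5k, at -50 to -41 from the start, and an Sp1 motif in the others, at -80 to -75 in Atp5md and -193 to -188 in Cox6b2.
Atp5k: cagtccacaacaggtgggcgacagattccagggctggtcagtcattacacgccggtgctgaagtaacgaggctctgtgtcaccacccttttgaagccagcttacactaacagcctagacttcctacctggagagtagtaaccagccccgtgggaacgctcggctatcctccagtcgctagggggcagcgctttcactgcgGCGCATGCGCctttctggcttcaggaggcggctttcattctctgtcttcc
Atp5md: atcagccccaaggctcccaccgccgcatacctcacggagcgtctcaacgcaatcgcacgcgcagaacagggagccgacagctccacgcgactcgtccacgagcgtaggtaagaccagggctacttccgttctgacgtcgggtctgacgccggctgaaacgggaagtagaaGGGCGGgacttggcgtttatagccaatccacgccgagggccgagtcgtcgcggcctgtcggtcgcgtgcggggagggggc
Cox6b2: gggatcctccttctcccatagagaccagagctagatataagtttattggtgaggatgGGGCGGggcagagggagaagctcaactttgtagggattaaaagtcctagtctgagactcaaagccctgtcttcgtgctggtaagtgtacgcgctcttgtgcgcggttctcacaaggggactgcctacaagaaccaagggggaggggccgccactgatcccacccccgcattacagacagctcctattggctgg

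The letters searched on both strands were those in capitals in the Atp5k promoter for NRF1, a factor of nuclear genes for mitochondrial proteins, CCGGAAG for GABP, AAGATGGC for YY1 and GGGCGG for Sp1. Of the 78 genes, 65 had a promoter in the table. The NRF1 letters stood in 2 of the 65 promoters, 3.08%, and in 0.781% of all 27025 promoters. With any base allowed at the sixth letter, which includes the first form, they stood in 9 of 65, 13.8%, against 3.86%. The GABP letters stood in 16.9% against 7.05%, the Sp1 letters in 38.5% against 32.9%, and the YY1 letters in 0 of 65 against 1.59%. These are counts of letters in a window of 250 bases and describe the promoters, not binding.

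Atp5k stood at 0.16, 0.53, 0.42 and 0.44 on treated replicates 1 to 4. All 4 arrays were above 0 in both dye orientations, and replicate 1 was the lowest. At 3, 7, 12 and 23 h, against the 0 h reference, its fitted means were 0.073, 0.075, 0.0075 and -0.0071. Single arrays overlapped with the treated ones. The values on 3 h replicate 1 (0.18) and 7 h replicates 1 and 2 (0.18 and 0.24) lay above that of treated replicate 1. Atp5md stood at 0.55, 0.23, 0.072 and 0.34, again above 0 on every treated array, with the highest and the lowest differing by more than the fitted mean. It lost its call without treated replicate 1 (0.24, adjusted p = 0.127) or 4 (0.25, adjusted p = 0.119), while Atp5k kept its own without each array in turn, at 0.35 to 0.48. Without the 2 arrays that stood apart, Atp5md stood at 0.30 with an adjusted p of 0.0523. With every Cy3 array turned in sign, Atp5k stood at -0.041 (adjusted p = 0.846) and Atp5md at 0.093 (adjusted p = 0.569), so both calls rest on the deposited signs.

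The other small membrane subunits and the c ring leaned the same way, but none passed. The c-ring gene Atp5g3 stood at 0.19 (SE 0.07, n = 4, adjusted p = 0.136), with 0.42 and 0.41 on the Cy5 arrays and -0.08 and 0.03 on the Cy3 arrays. Atp5l, subunit g, stood at 0.19 (adjusted p = 0.196) and split in the same manner, with 0.45 and 0.46 against -0.15 and 0.011. For both, the Cy5 arrays lay clear of the Cy3 arrays. Atp5j2, subunit f, stood at 0.13 (adjusted p = 0.236) and Atp5mpl, a small proteolipid of the enzyme, at 0.10 (adjusted p = 0.415). All 6 genes of this group were thus above 0, with a median of 0.19, against a median of 0.009 over all features.

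The catalytic part behaved differently gene by gene. Atp5b, the beta subunit that carries the catalytic sites, stood at 0.069, 0.18, 0.058 and 0.11 on the treated arrays. Those 4 values lay within a narrow band on the upper side of 0, with a mean of 0.10 (SD 0.055, adjusted p = 0.548). Atp5a1, the alpha subunit, stood at -0.044, Atp5c1, the gamma subunit of the central stalk, at 0.038, Atp5d, the delta subunit, at -0.14 and Atp5e, the epsilon subunit, at 0.16, none of which passed. Of the 5 F1 genes, 3 were above 0, and the median was 0.038. In the peripheral stalk, Atp5j was above 0 on all 4 arrays (0.27, 0.17, 0.06 and 0.19, adjusted p = 0.281), while Atp5h ran from -0.74 on replicate 1 to 0.31 on replicate 3. Atp5o and Atp5pb stood at 0.082 and 0.012.

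**Figure D2:**
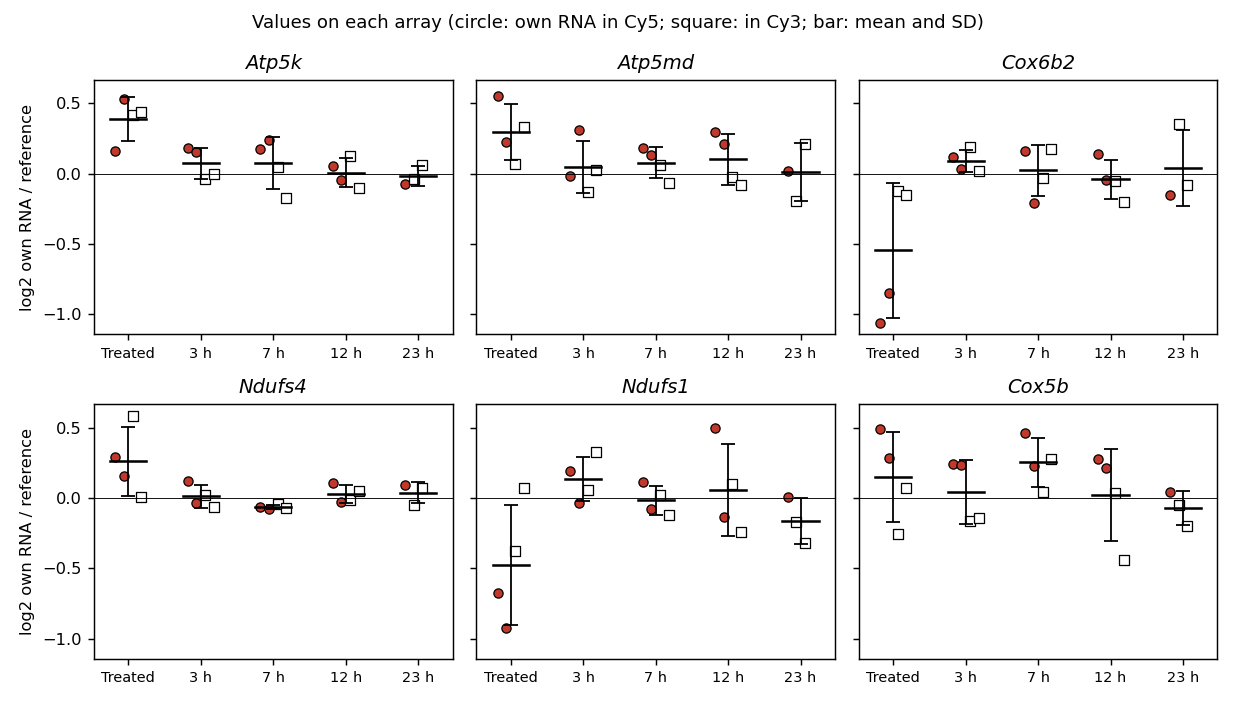
Values of 6 genes on each array (log2 of own RNA over reference, shared vertical axis) by group; red circles are arrays with own RNA in Cy5, open squares with own RNA in Cy3, and bars give the mean and SD of the group. All 4 treated arrays lie above 0 for Atp5k, Atp5md and Ndufs4 and below 0 for Cox6b2, whose Cy5 arrays (-1.06 and -0.85) lie far below its Cy3 arrays (-0.13 and -0.15).

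Complex IV, cytochrome c oxidase, has nuclear subunits of which several come in tissue forms. Cox6b2, the testis form of subunit VIb, stood at -1.06, -0.85, -0.13 and -0.15 on treated replicates 1 to 4. It was below 0 on every array, and the Cy5 arrays gave a mean of -0.96 where the Cy3 arrays gave -0.14. The SD of 0.48 over these arrays exceeds what the pooled SE of 0.12 implies. The call ended without replicate 1 (-0.40, adjusted p = 0.0719) and with the Cy3 signs changed (-0.41, adjusted p = 0.101). Its counterpart in most tissues, Cox6b1, stood at 0.11 (SE 0.08, n = 4, adjusted p = 0.445), with 0.31 and 0.38 on the Cy5 arrays and -0.16 and -0.078 on the Cy3 arrays.

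Among the 10 subunits of complex IV used in most tissues, 9 were above 0 in treated cells, with a median of 0.15, and none passed. Cox7a2 was the highest at 0.21 (SE 0.13, n = 4, adjusted p = 0.371), on arrays that ran from -0.19 to 0.84. Cox6a1 stood at 0.18, Cox7c and Cox5b at 0.15, Cox4i1 at 0.15 and Cox8a at 0.045. Cox5a, at -0.034, was the only common subunit below 0. The dye split was plain in Cox8a, at 0.47 and 0.41 on the Cy5 arrays and -0.52 and -0.17 on the Cy3 arrays. Of the heart and muscle forms, Cox6a2 stood at 0.13, Cox7a1 at 0.074 and Cox8b at -0.19, none past the threshold.

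Complex I was the most numerous and held no called gene. The nearest were Ndufs4 at 0.26 (SE 0.07, n = 4, adjusted p = 0.0525) and Ndufs1 at -0.48 (SE 0.13, n = 4, adjusted p = 0.0542). Ndufs4, an accessory subunit needed for a stable NADH-binding end of the enzyme, stood at 0.29, 0.16, 0.59 and 0.005 on the treated arrays. None of these lay below 0, but replicate 4 was nearly there, and the 2 probes of the gene disagreed, with means of -0.07 and 0.59. Ndufs1, the largest core subunit and a carrier of iron-sulphur clusters, stood at -0.68, -0.92, -0.38 and 0.071, so 3 of 4 arrays were below 0. It was the lowest gene of complex I, and the other 5 core genes lay between 0.020 for Ndufs7 and 0.13 for Ndufs8.

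Of the 25 accessory subunits of complex I, 19 were above 0 in treated cells (median 0.13). Ndufa2, which sits in the NADH-binding arm, was the highest at 0.35 (SE 0.12, n = 4, adjusted p = 0.105), with 0.71, 0.57, -0.22 and 0.33 on the arrays. Replicate 3 thus lay on the other side of 0 from the rest. Ndufs6 stood at 0.21 (adjusted p = 0.0999), Ndufa7 at 0.21 (adjusted p = 0.22), Ndufc2 at 0.15 (adjusted p = 0.209) and Ndufb2 at 0.15 (adjusted p = 0.176). Each of these 4 was below 0 on replicate 3 and above 0 on the other arrays. Ndufab1, the mitochondrial acyl carrier protein, stood at -0.31 (adjusted p = 0.374) with a range from -1.53 to 0.38. All 5 assembly factors were above 0 (median 0.10), from 0.058 for Ndufaf6 to 0.24 for Ndufaf1, the latter on arrays that ran from -0.56 to 1.09.

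Among the genes chosen by symbol, complexes II and III showed none near the threshold in treated cells. Sdha, the flavoprotein of succinate dehydrogenase, was the lowest gene of the set at -0.68 (SE 0.41, n = 4, adjusted p = 0.367), with -1.91, -0.76, 0.063 and -0.093 on the arrays. The Cy5 arrays were far below 0 and the Cy3 arrays close to it. Sdhb, the iron-sulphur subunit, stood at 0.0035, and the membrane anchors Sdhc and Sdhd stood at 0.14 and 0.11. Both anchors were above 0 on replicates 1 and 3 and below 0 on replicates 2 and 4. In complex III, the core proteins Uqcrc1 and Uqcrc2 stood at 0.11 and -0.047, and Uqcrfs1, the Rieske iron-sulphur protein, at -0.058 with arrays from -1 to 0.60. The 4 small subunits were all above 0 (median 0.078), led by Uqcrq at 0.14 (adjusted p = 0.344).

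The values of the set differed between the arrays of the 2 dye orientations, which are also those of different replicate numbers, so dye and replicate number cannot be told apart. On treated replicates 1 and 2, with own RNA in Cy5, the median over the set was 0.19 and 0.16. On replicates 3 and 4, with own RNA in Cy3, it was -0.11 and 0.07. Averaged over the Cy5 arrays, 57 of 78 genes were above 0, 73.1%, against 48.1% of all features, while over the Cy3 arrays it was 35 of 77, 45.5%, against 52.9%. Fitted on the Cy3 arrays alone, 34 of 75 genes were above 0 in place of 60 of 76, and the median of complex IV was -0.086 in place of 0.12.

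**Figure D3:**
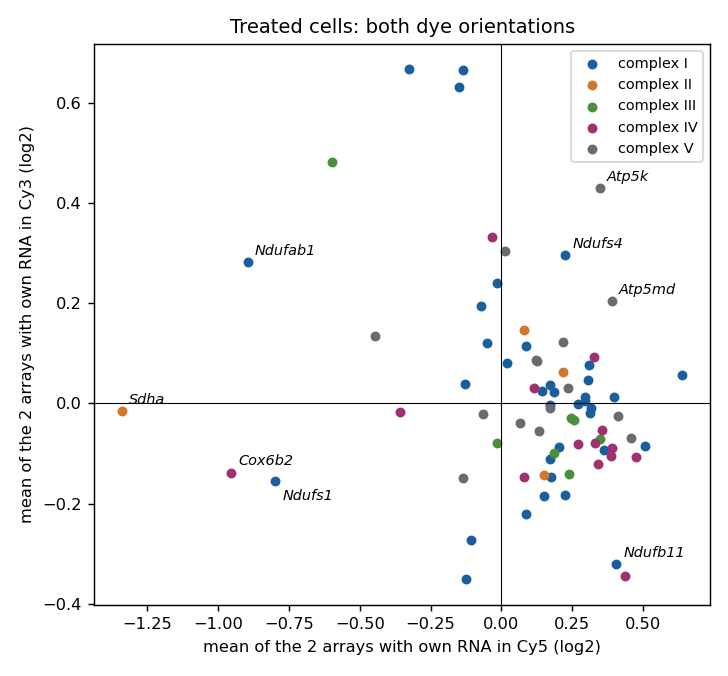
Each point is a gene in treated cells: mean of the 2 arrays with own RNA in Cy5 (horizontal axis, log2) against mean of the 2 arrays with own RNA in Cy3 (vertical axis, log2), coloured by complex. Atp5k, Atp5md and Ndufs4 lie above 0 on both axes and Cox6b2 and Ndufs1 below 0 on both, while most points lie to the right of 0 and on either side of it in height.

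In the time course the difference ran the same way, with exceptions. Over all 19 arrays, the median of the set was above 0 on 7 of 9 Cy5 arrays (from -0.002 to 0.19, middle value 0.072) and on 4 of 10 Cy3 arrays (from -0.11 to 0.07, middle value -0.021). At 12 h, 58 of 78 genes were above 0 over the Cy5 arrays and 30 of 77 over the Cy3 arrays, against 49% and 52.1% of all features. At 3 h it was 46 and 24 of 78 (50.6% and 50.6% of all features). At 7 h the counts were 48 and 35 of 78 (49.2% and 48.8%), and at 23 h 39 and 35 of 78 (50% and 50.3%). In each group the count was the higher with own RNA in Cy5, but single arrays departed from this: 62.3% of the genes were above 0 on 12 h replicate 3, in Cy3, and 49.4% on 3 h replicate 2, in Cy5. The fit holds a dye term, the part of the value common to all groups that changes sign with the dye. It was above 0 for 52 of 78 genes, 66.7%, against 45.1% of all features, with a median of 0.035 against -0.0085.

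No gene passed the adjusted threshold for the dye term, where 0.0124% of all features did (limma, smallest adjusted p in the set 0.0906). At an unadjusted p below 0.05, 23 of 78 genes did, 20 of them above 0, against 12.6% of all features. Among those below 0 were Ndufc1 (-0.29), Ndufb10 (-0.28) and Ndufa8 (-0.21), all of complex I, where a Cy5 label went with the lower value. Among those above 0 were Ndufb9 (0.28), Ndufb11 (0.22), Cox5b (0.17), Uqcr10 (0.15), Atp5g3 (0.14), Cox6b1 (0.13) and Cox5a (0.11). The latter come from complexes I, III, IV and V, and in each a Cy5 label went with the higher value. What the dye contributes to the group means was not tested beyond this term.

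**Figure D4:**
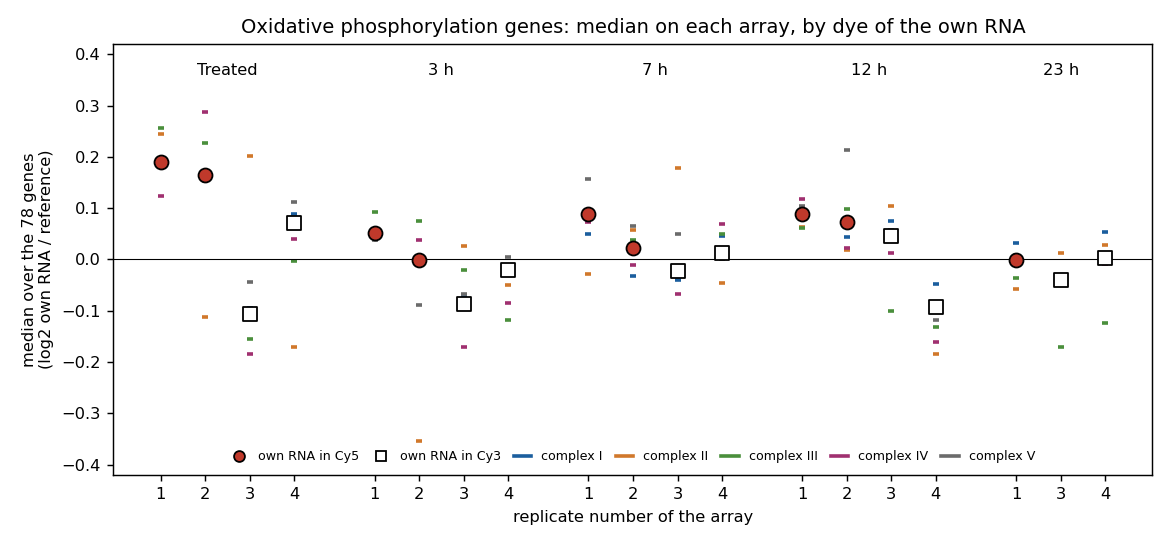
Median over the 78 genes on each of the 19 arrays (large symbols; log2 of own RNA over reference, vertical axis) by group and replicate number; red circles have own RNA in Cy5, open squares in Cy3, and short coloured bars are the medians of each complex. The highest medians, 0.19 and 0.16, are those of the treated Cy5 arrays, and the lowest, -0.11, is that of treated replicate 3, a Cy3 array.

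At 3 h after tamoxifen, none of the 78 genes passed the adjusted threshold, and neither did any other feature (0%). The set lay around 0, with 35 of 78 genes above it and a median of -0.013. None had an unadjusted p below 0.05, where 5.37% of all features did. On every array, 4 genes were above 0 (5.26% of 76; 11.1% of all features) and 5 below 0 (6.58%; 10.5%). The former included Ndufaf7, a methyltransferase that acts on a core subunit of complex I, at 0.18 (0.17, 0.32, 0.16 and 0.075 on the arrays). Ndufv1, the core subunit that binds NADH, stood at 0.16 (0.051, 0.29, 0.20 and 0.11). Both were steady in sign but neither passed, each with an adjusted p of 0.887.

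Of the 5 genes below 0 on all 3 h arrays, Ndufa2 was the lowest, at -0.21 (-0.085, -0.33, -0.18 and -0.24 on the arrays, adjusted p = 0.897). Ndufa6, an accessory subunit of complex I, stood at -0.16 and Atp5e at -0.14. The widest values came from genes with a wide spread. Cox7b2, a testis form, stood at 0.32 with an SD of 0.57, and Uqcrfs1 at -0.22 with an SD of 0.47. Complex medians at 3 h ran from -0.057 in complex III to 0.006 in complex V.

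At 7 h again no feature passed (0%), and 49 of 76 genes were above 0 (median 0.022), or 44 of 78 (median 0.0044) without the 2 arrays that stood apart. At an unadjusted p below 0.05, 2 of 76 genes did, against 3.37% of all features. Cox5b, a common subunit of complex IV, stood at 0.46, 0.23, 0.042 and 0.28 on the 7 h arrays, a mean of 0.25 (SE 0.08, n = 4, limma adjusted p = 1). All 4 arrays were above 0, and the gene was also among those with a high dye term. Cox7b2 stood at -0.57, with -0.21, -0.098, -0.43 and -1.56 on the arrays. The last value, on 1 of the 2 arrays that stood apart, is far below the other 3. On every array 3 genes were above 0 (3.95% of 76; 5.79% of all features) and 7 below (9.21%; 6.82%). All statements on sign at 7 h take replicate 4 with its deposited sign, which is in doubt.

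At 12 h, 55 of 77 genes were above 0 (71.4%; 51.1% of all features), with a median of 0.034. None passed, against 0.0186% of all features. The median was 0.062 in complex V, 0.041 in complex I, -0.036 in complex III, 0.0088 in complex II and 0.0048 in complex IV. At an unadjusted p below 0.05, 3 of 77 genes did, all higher, against 3.51% of all features. Ndufa2 stood at 0.016, 0.27, 0.43 and 0.52, a mean of 0.31 (SE 0.12, n = 4, adjusted p = 1), above 0 on all 4 arrays. Atp5b stood at 0.044, 0.23, 0.62 and -0.045, and Ndufa8 at 0.40, -0.38, 1.33 and 0.24. In both of these replicate 3 was much the highest. On every array 3 genes were above 0 (3.9% of 77; 7.53% of all features) and 4 below (5.19%; 7.01%).

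At 23 h, 46 of 78 genes were above 0 (median 0.009), or 43 of 77 (median 0.011) without the 2 arrays that stood apart, and no feature passed (0%). Cox5a was the single gene with an unadjusted p below 0.05, where 1.7% of all features had one, at -0.18 (SE 0.08, n = 3, adjusted p = 1). More genes kept to a side here than at the other times: 8 of 77 were above 0 on all 3 arrays (10.4%; 10% of all features) and 10 below (13%; 9.42%), on fewer arrays. The lowest fitted mean was that of Ndufaf1, an assembly factor, at -0.99 from values on 2 arrays. Without centring, the median of the set was 0.083, since the deposited values of replicate 3 were themselves shifted. The 23 h arrays opposed each other on myeloid markers, described below, with array medians from -1.08 to 1. What this means for the values and contrasts at 23 h was not tested.

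**Figure D5:**
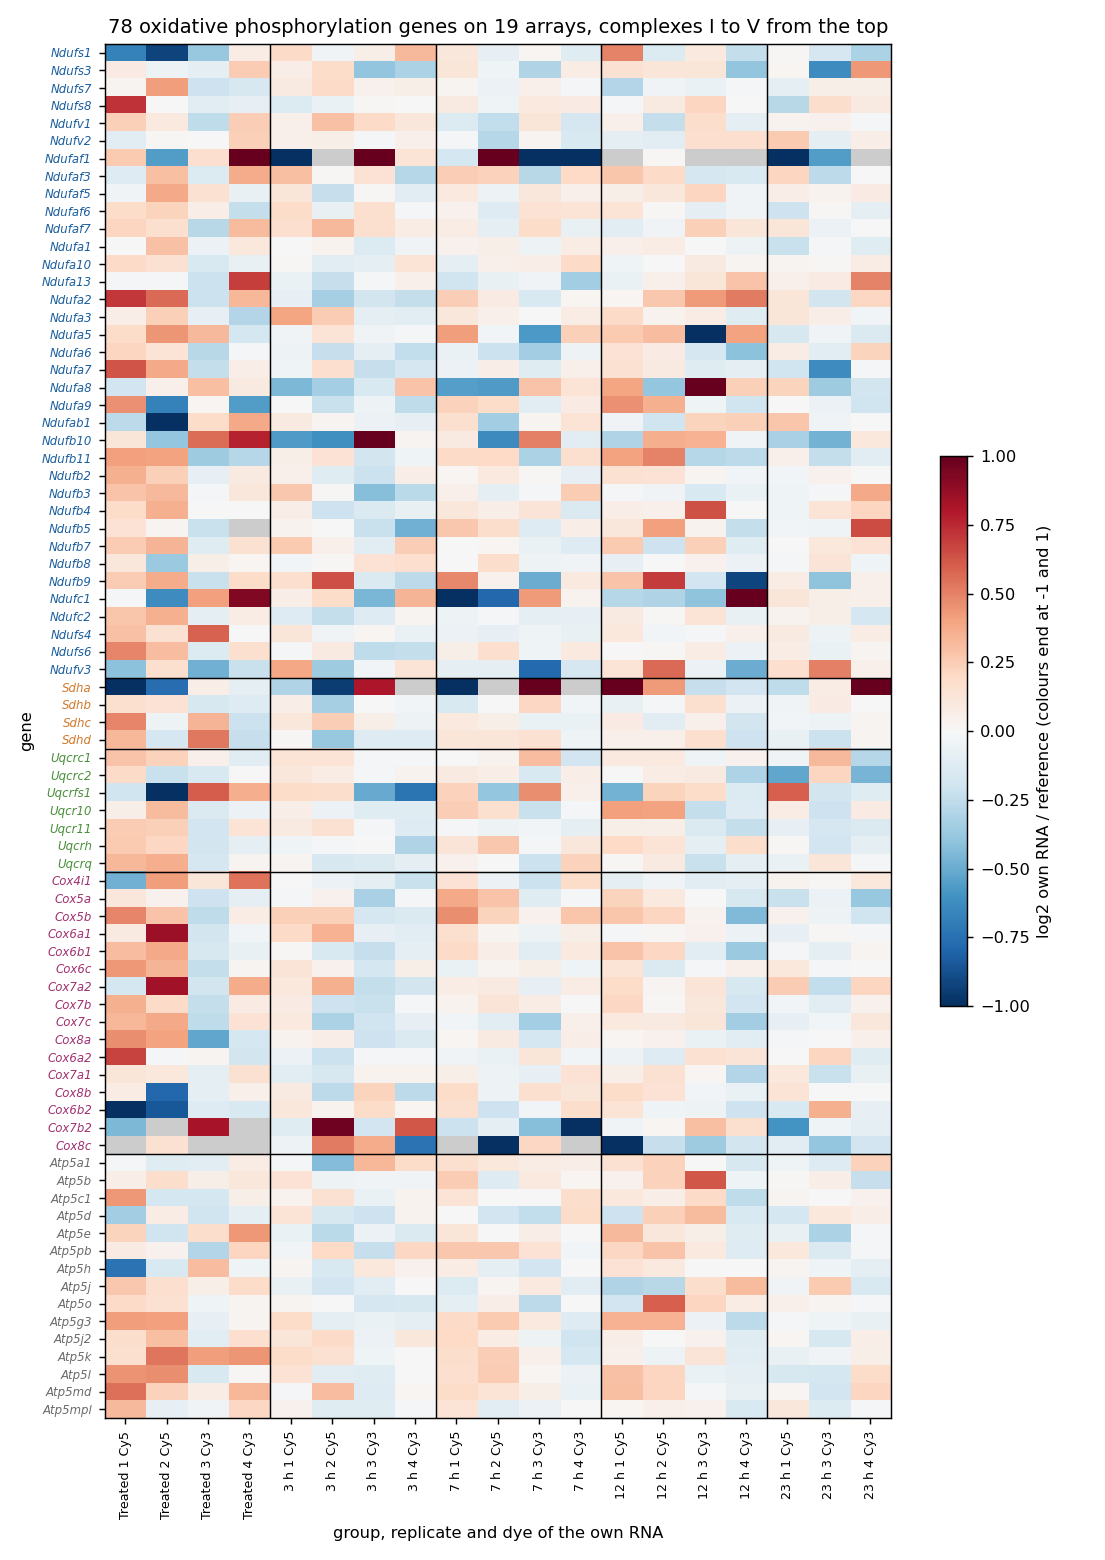
Value of each of the 78 genes (rows, complexes I to V from the top) on each of the 19 arrays (columns, named by group, replicate and dye of the own RNA); red is above 0 and blue below, colours end at -1 and 1 (log2 of own RNA over reference), and grey marks no value. The treated columns carry the strongest colours, and columns in Cy5 are redder than columns in Cy3 in most groups.

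Whether the values changed along the time course was asked in 2 ways. Between 23 h and 3 h no gene differed at the adjusted threshold (0% of all features), and 1 of 78, Ndufb5, a membrane-arm subunit of complex I, differed at an unadjusted p below 0.05, by 0.40 (SE 0.17, limma adjusted p = 1), against 2.55% of all features. Among the 4 times together no gene passed the F test (0%), and 1 of 75, Cox5a, had an unadjusted p below 0.05, against 2.4% of all features. Cox5a stood at -0.076, 0.13, 0.041 and -0.18 at 3, 7, 12 and 23 h. The medians of the complexes lay between -0.057 and 0.062 at all 4 times.

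Other genes of the pathway were counted in treated cells, where 4.76% of all features passed and 52.1% were above 0. None of 28 further assembly factors of the complexes passed (17 above 0, median 0.067), nor any of 19 genes of pyruvate oxidation and the citric acid cycle (11 above 0, median 0.029), nor any of 13 regulators of mitochondrial genes such as Nrf1 and Tfam (8 above 0, median 0.05). The assembly factors nearest the threshold were Coa5, at 0.87 (SD 0.43, limma adjusted p = 0.0501), and Coa3, at -0.36 (SD 0.056, adjusted p = 0.06). Of 9 genes of ubiquinone synthesis, 5 were above 0, and Coq3, a methyltransferase of that pathway, rose by 0.45 (SE 0.12, SD 0.34, n = 4, limma adjusted p = 0.0428). Of 11 carriers and related genes, 8 were above 0. Among them Etfdh, which passes electrons from fatty acid oxidation to ubiquinone, fell by 0.41 (SE 0.11, SD 0.49, n = 4, adjusted p = 0.048). Whether the calls of Coq3 and Etfdh held under the alternatives was not examined. This list also held Cyc1, cytochrome c1 of complex III, whose symbol lies outside the naming rule, at 0.19 (SE 0.06, n = 4, adjusted p = 0.104). None of these lists held a called gene at 3, 7, 12 or 23 h.

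Markers of blood and other lineages were counted against the same shares, as ratios only. Of 8 myeloid markers 1 was above 0 in treated cells, with a median of -0.25 and array medians of -0.35 to -0.086, and Cd68, a macrophage protein, fell by 0.34 (adjusted p = 0.0494). The myeloid median was -0.16 at 3 h, -0.16 at 7 h, -0.42 at 12 h and -0.34 at 23 h. It was thus below 0 in every group, but arrays opposed each other at 7 h and 23 h. Array medians ran from -0.43 to 0.43 at 7 h and from -1.08 to 1 at 23 h. At 23 h the SD was 1.03 to 1.35 for Camp, Elane, Ltf, Lyz2, Mpo and Ngp, against 0.062 to 0.26 at 12 h. For Cd68 and Prtn3 the SD at 23 h was 0.18 and 0.13. In treated cells, 4 of 8 progenitor markers were above 0 (median 0.0077), 0 of 4 erythroid (-0.20), 2 of 4 lymphoid (-0.046, Cd3g lower by the test at -0.36), 3 of 7 pluripotency (-0.07), 4 of 10 fibroblast (-0.065, Col5a1 lower by the test at -0.34), 3 of 7 muscle (-0.13) and 4 of 8 testis markers (0.069). The testis array medians ran from -0.52 to 0.69, beside the low value of the testis form Cox6b2. What part any of these had in the values of the oxidative phosphorylation genes was not tested.

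Where a gene was read by several probes, these did not always point the same way. In treated cells all probes lay on the same side of 0 for 13 of 22 such genes, and not for Ndufs4, Ndufb10, Atp5a1 or Atp5h among others. The called genes Atp5k, Atp5md and Cox6b2 had 1 probe each, so no second probe could be compared. The probes agreed in sign for 11, 7, 6 and 11 of 22 at 3, 7, 12 and 23 h. The median difference between the highest and the lowest probe was 0.15 in treated cells and 0.075 to 0.11 at the 4 times. The median SD between arrays was 0.26 for the set in treated cells, against 0.30 for all features, and 0.13 to 0.17 at the 4 times. Because the test pools the spread over all groups, a standard error given for treated cells is smaller than those arrays alone would give for many genes. At the 4 times, where the spread was smaller, it is larger than those arrays alone would give for many genes. The unadjusted counts at these times rest on the pooled spread.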

How the data were processed

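The authors deposited 1 log2 ratio per spot for each of 19 2-colour arrays, in the reading used here; base, numerator, normalization and software: not given in the sources used here. Labelling was indirect, per the labels' protocols, which also mention organs and a pool of animals and so were not used for the groups. Each array held 1 extreme value (beyond 16 in size) repeated on several spots, which was set to missing. Arrays were centred on their median, probes of a gene averaged, and 16148 features fitted with limma 3.58.1 in R 4.3.3 (1 mean per group and 1 dye term, all arrays). A feature was tested with values on at least 3 of 4 arrays, or 2 of 3 at 23 h, and called at a Benjamini-Hochberg adjusted p below 0.05 over all features tested. The fit was tested on simulated data with changes placed in the 3 h arrays only, so this does not cover the noisier treated arrays. The number of arrays limits the precision. Deposited signs were kept after the data were seen, because the repeated extreme value followed the dye on every array except 7 h replicate 4. That array also kept its deposited sign, although this reason goes against it, and turning it alone was not tried. The genes and lists were chosen with earlier results of these data known; the text names called genes, the highest and lowest of each complex, core and isoform genes, those most steady in sign, and genes with an unadjusted p below 0.05 or a high dye term, the last 2 chosen after their values were seen. Alternatives concerned the signs, dye term, centring, weights, normalization, probes, filters, pairing and arrays left out.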

Additional observations from a re-analysis of the deposited data

Results flagged for a closer look

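In 6 of 98 groups of 4 values tested, 1 array lay far from the other 3. The nominal rate of 5% does not hold here. Many of the genes tested were named for being the highest, lowest or most steady in sign in these same values. Ndufs8, a core subunit of complex I, stood at 0.726 on treated replicate 1 and between -0.107 and -0.003 on the others. At 7 h, replicate 3 held the low values of Ndufaf3 (-0.278; others 0.196 to 0.244) and Ndufv3 (-0.779; others -0.165 to -0.086), and replicate 4 that of Sdhd (-0.046; others 0.119 to 0.151). At 12 h, Cox8c stood at -1.38 on replicate 1 (others -0.357 to -0.181) and Ndufb4 at 0.64 on replicate 3 (others 0.002 to 0.068).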

How the results depend on the processing

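The count of genes called was 0 at 3, 7, 12 and 23 h, between 23 h and 3 h and among the 4 times under every alternative run for them. In treated cells it was 3, but 5 with the sign of every Cy3 array changed (Cox6c, Cox8a, Ndufab1, Ndufb11 and Uqcrfs1, none of the 3), and 0 with array weights, with no arrays but the treated ones, with quantile normalization and with only the Cy3 arrays. Leaving out 1 treated replicate at a time gave 2 to 5. With only the Cy5 arrays it was 4 (Cox6b2, Cox8a, Ndufa2 and Ndufb11). The share of all features called under each alternative is not given here, so these counts cannot be read against the array as a whole. Atp5k turned to -0.0405 with the Cy3 signs changed. The count of genes above 0 moved to 34 in treated cells with only the Cy3 arrays and to 55 at 3 h with the Cy3 signs changed, from 60 and 35, and stayed near the main count in the other 79 of 81 results of this kind. The cause of these moves was not tested. Same-numbered arrays of different groups correlated at -0.109 to 0.203 (mean 0.0341), over 0.1 in 4 of 36 pairs. Other-numbered arrays of the same dye had a mean of 0.0461 and were over 0.1 in 6 of 36 pairs. Same-numbered arrays were thus not closer on average, but such weak correlations cannot decide whether the numbers mark shared cultures. A replicate block in place of the dye term called 2 genes in treated cells, Atp5k and Cox6b2, and left Atp5md at an adjusted p of 0.0572. Spot intensities and backgrounds were not analysed here.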
